A study of Mus musculus with 9 samples.

Results

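Transcripts of 32 genes of the tricarboxylic acid (TCA) cycle and of pyruvate entry into mitochondria were measured by RNA sequencing in mouse embryonic stem (ES) cells, in a group labelled as Zbtb11 knockout (KO) and in 2 control groups. The genes were named by symbol for their role in the pathway, by a rule that uses no measured value, but with earlier results of these data known. All 32 matched 1 of the 37310 gene rows of the files, and all 32 were among the 16224 genes with enough counts to be tested.

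The study compared 9 libraries in 3 groups of 3, all from the E14 parental line and all collected after 72 h. The ethanol control carried floxed Zbtb11 (Zbtb11lox/lox) and ERt2-Cre, a recombinase that 4-hydroxytamoxifen (4OHT) activates, at the Rosa26 locus, and received only the carrier ethanol. The KO-labelled group was the same genotype with 250 nM 4OHT, so deletion, activated Cre and drug differ together from the ethanol control and cannot be told apart in that comparison. The 4OHT control had unmodified Zbtb11 and Rosa26 loci (Zbtb11WT/WT, Rosa26 WT) and 250 nM 4OHT, so it differs from the ethanol control in line and in drug, which cannot be told apart. From the KO-labelled group it differs in line, activated Cre and deletion together, which cannot be told apart either. Cells were grown without feeders in serum and LIF. The labels name neither separate cultures behind the replicates nor separate clones behind the lines, so the spread behind the p-values is that of these 9 libraries and may be technical in part.

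The TCA cycle oxidises acetyl-CoA in the mitochondrial matrix and passes the electrons to the respiratory chain. Pyruvate from glycolysis enters the matrix through the carrier Mpc1-Mpc2 and is turned into acetyl-CoA by the pyruvate dehydrogenase complex, which kinases switch off and phosphatases switch on, or into oxaloacetate by pyruvate carboxylase. In ES cells the cycle also exports citrate, which Acly splits into cytosolic acetyl-CoA for lipids and histone acetylation, and takes in glutamate through Glud1 and the aminotransferases.

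Gene counts per library ranged from 16909139 to 23544893. KO-labelled replicate 3 stood somewhat apart: the chi-square per gene against the other KO-labelled libraries was 15.6 and 16.7, and every other pair of replicates had 4.97 to 7.55. The ES cell markers summed to 3975 to 4220 CPM (counts scaled by TMM to a common library size) in the KO-labelled libraries, 4202 to 4391 in the ethanol control and 4266 to 4830 in the 4OHT control, with 2 of 9 markers (Esrrb and Utf1) called lower against the ethanol control. Primitive endoderm markers summed to 11.0 to 14.4, 6.25 to 9.69 and 6.78 to 7.83 CPM in the same order, with 3 of 5 tested markers (Gata6, Gata4 and Sox17) called higher against the ethanol control, and Sox17 and Foxa2 under 1 CPM in every library. Fibroblast markers summed to 18.6 to 18.8 CPM in the KO-labelled libraries, 15.8 to 18.7 in the ethanol control and 14.0 to 15.0 in the 4OHT control. None of the 3 tested was called against the ethanol control, and the other 3 of the 6 (Col3a1, Dcn and Lum) were under 1 CPM in every library. Trophoblast markers summed to 87.3 to 90.9, 86.4 to 90.4 and 53.0 to 72.1 CPM in the same order, neural markers to 174 to 194, 173 to 207 and 208 to 231, and mesoderm markers to 8.84 to 11.1, 7.05 to 8.92 and 8.22 to 9.53. Cdx2 and Elf5 (trophoblast), Neurog2 (neural) and Mesp1 (mesoderm) were under 1 CPM in every library. No tested marker of these sets was called against the ethanol control. The KO-labelled libraries thus lay above the 4OHT control for primitive endoderm, fibroblast and trophoblast markers, without overlap. They lay below it for ES cell and neural markers, also without overlap. Reads in no annotated feature were 32.7% to 33.8% of the total in the KO-labelled libraries, against 26.4% to 28.7% in the ethanol control and 26.7% to 27.5% in the 4OHT control. The part of these marker and read shares in the results below was not tested. The gene-level count of Zbtb11 itself was not lower in the KO-labelled libraries, at 377 ± 8.47 CPM against 355 ± 6.70 in the ethanol control and 368 ± 9.31 in the 4OHT control (SD, n = 3). It was higher than in the ethanol control with an edgeR adjusted p of 0.174, or of 0.032 when the replicate number was a block. The labels do not say which exons are deleted, so this value does not check the labels, and the group is therefore named KO-labelled here.

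Against the ethanol control, which has the same genotype but received no 4OHT, the differences were small. Transcripts of 6 enzymes fell by 11.5% to 18.6%: Suclg2, Idh2, Dlat, Idh3a, Acly and Idh3b. Those of the cytosolic malate dehydrogenase Mdh1 rose by 12.9%, and 25 members were not called. "Fell" and "rose" mean an edgeR quasi-likelihood test with a Benjamini-Hochberg adjusted p under 0.05 over all genes tested. The falls were 18.8% of the members, beside 14.2% of all genes tested, and the rise was 3.12%, beside 13.0%. No member reached a 2-fold change, while 3.99% of all genes both reached it and were called. The median log2 fold change of the 32 members was -0.10, against 0.01 over all genes, and single members ran from -0.30 to 0.27. With library totals in place of TMM scaling the median was -0.03 for the members and 0.09 for all genes. In that fit 2 members fell and 1 rose, beside 1527 and 3038 of all genes. That scaling also moved the share of rises among all called genes from 47.8% to 66.5%. The count of members that fell was 3 (all genes 1709) without ethanol control replicate 2 and 2 (1756) without KO-labelled replicate 1. It was 10 (2330) without KO-labelled replicate 2 and 6 again (2154) without KO-labelled replicate 3. With every library 2307 of all genes fell. The rise was not called without ethanol control replicate 1 or KO-labelled replicate 2. In those fits 1741 and 1794 of all genes rose, against 2110 with every library. As these are bulk samples, fewer cells with a transcript and less of it per cell cannot be told apart.

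The replicate numbers were taken to pair the libraries across groups, which was read from these same data. With the replicate number as a block, 15 members (46.9%) fell and 2 (6.25%) rose against the ethanol control. Of all genes, 22.3% fell and 20.4% rose in that fit. The added falls were Idh3g, Pdhb, Dld, Pdhx, Pdp2, Sucla2, Aco1, Glud1 and Got1, and the added rise was Mpc1. In the fit without the block, all 3 KO-labelled libraries lay below all 3 ethanol control libraries for 11 members, which is 34.4% of them beside 20.5% of all genes. They lay above for Mdh1 alone, beside 21.3% of all genes. Summed over the 32 members, CPM were 3898 to 4071 in the ethanol control, 3576 to 3957 in the KO-labelled libraries and 3873 to 3968 in the 4OHT control, so the ranges overlap.

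**Figure D1:**
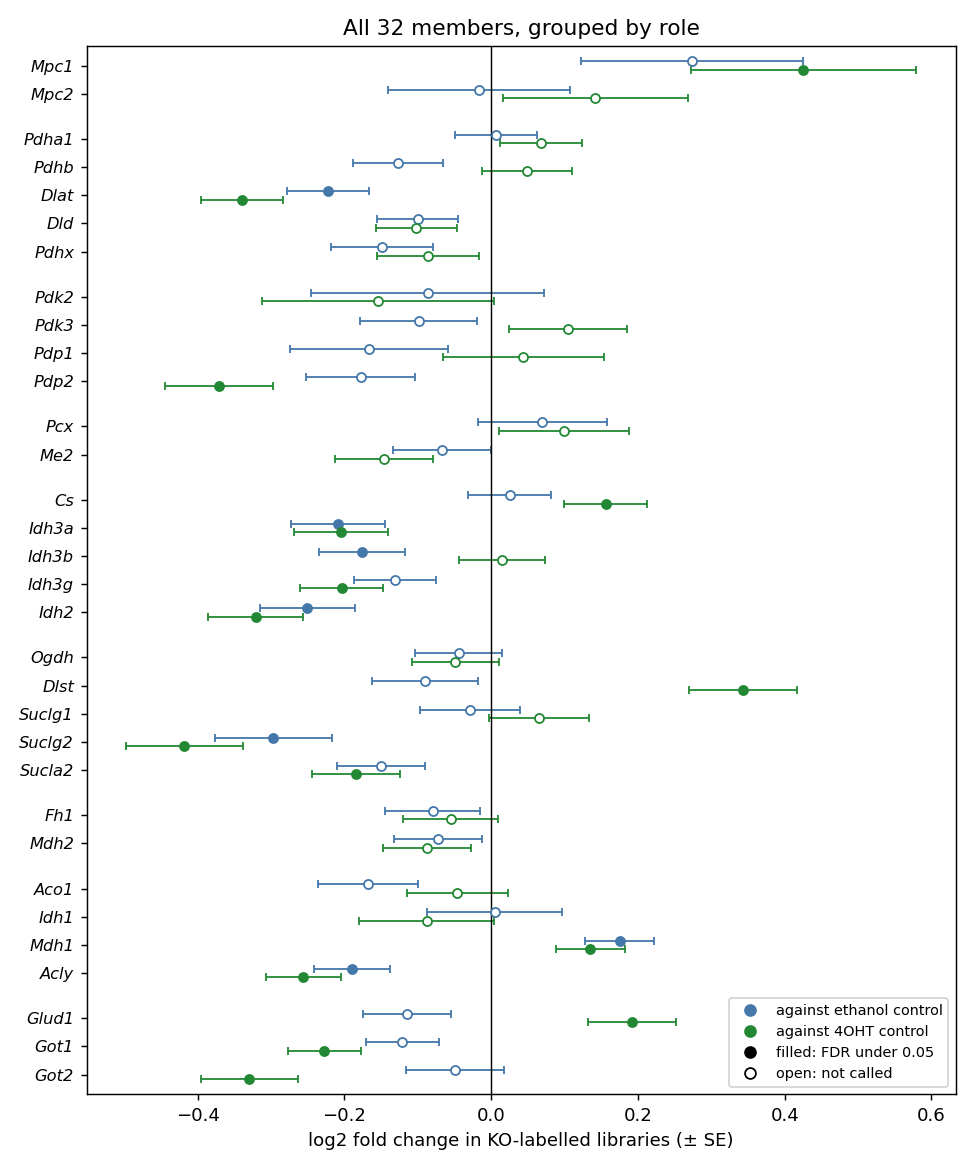
Log2 fold change (x axis, with its standard error as bars) of all 32 members (y axis, grouped by role) for the KO-labelled group against the ethanol control (blue) and the 4OHT control (green). Filled points have an adjusted p under 0.05. Against the ethanol control 6 filled points lie left of 0 and 1, Mdh1, lies right of it.

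Against the 4OHT control, which shares the KO-labelled libraries with the first comparison, 10 members fell and 5 rose. These are 31.2% and 15.6% of the members, beside 19.8% and 19.1% of all genes. The falls were Suclg2, Pdp2, Dlat, Got2, Idh2, Acly, Got1, Idh3a, Idh3g and Sucla2, and the rises were Mpc1, Dlst, Glud1, Cs and Mdh1. Of these, Dlst, Glud1 and Got2 were also called between the control groups. Line, activated Cre and deletion differ together in this comparison and cannot be told apart. The number of falls was 8 to 12 with any 1 library left out (all genes 2670 to 3192). The number of rises was 1 without KO-labelled replicate 2 or 4OHT control replicate 3 (all genes 2750 and 2563). It was 3 without KO-labelled replicate 1, 4OHT control replicate 1 or 4OHT control replicate 2 (all genes 2341, 2806 and 2544). It was also 2 with DESeq2, 3 with RLE size factors and 3 in a fit of the 6 libraries compared, where 2319, 2960 and 2810 of all genes rose, against 3103 with all libraries and TMM. With the replicate block 12 members (37.5%) fell and 5 (15.6%) rose, beside 25.9% and 25.5% of all genes. The median log2 fold change was -0.07 for the members and 0.02 for all genes. With library totals it was 0.01 and 0.10, and the share of rises among all called genes went from 49.1% to 64.4%. Against both controls, 5 members fell (Suclg2, Idh2, Dlat, Idh3a and Acly), 15.6% of the members beside 9.60% of all genes, and 1 rose (Mdh1), 3.12% beside 8.89%.

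**Figure D2:**
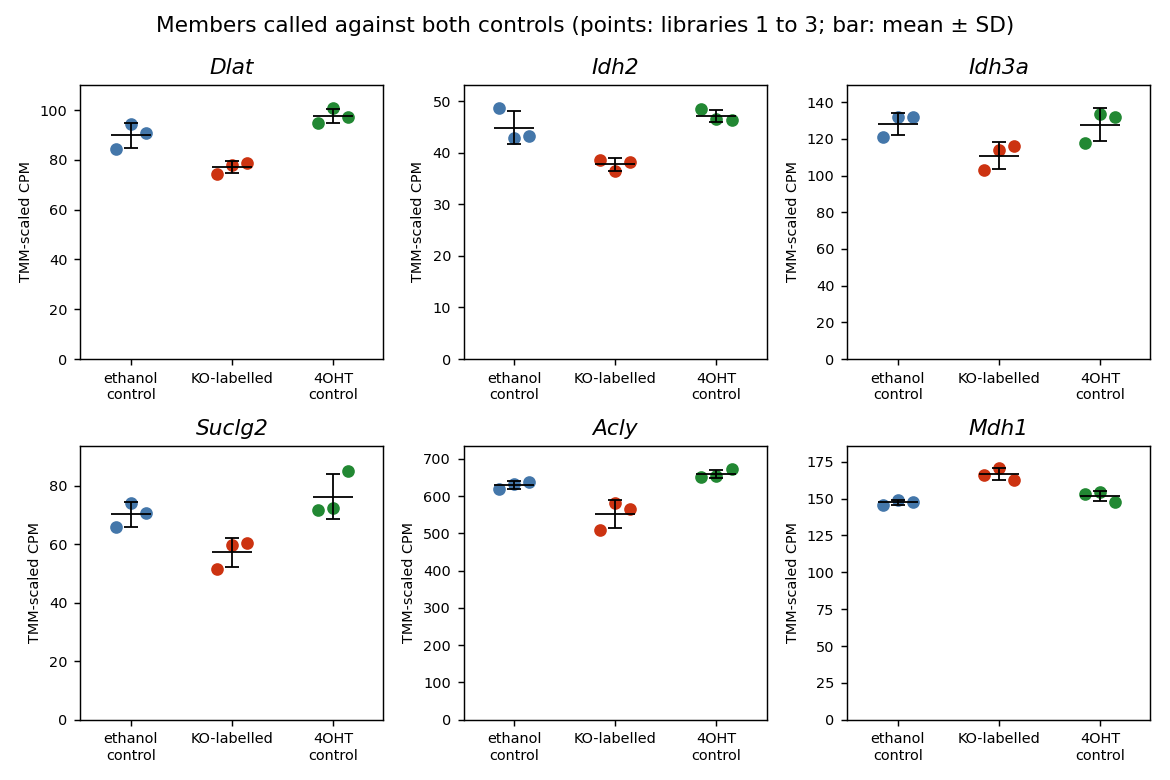
TMM-scaled CPM (y axis, from 0) in each library of the 3 groups (x axis) for the 6 members called against both controls. Points are libraries, and bars are the mean and SD of 3. For Dlat, Idh2, Idh3a, Suclg2 and Acly the KO-labelled points lie below those of both controls, and for Mdh1 above.

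The mitochondrial pyruvate carrier is made of Mpc1 and Mpc2. Mpc1 had 7.96, 6.03 and 5.62 CPM in ethanol control libraries 1, 2 and 3, 8.78, 8.17 and 6.81 in the KO-labelled libraries and 6.40, 6.23 and 5.14 in the 4OHT control. The KO-labelled libraries overlap the ethanol control and lie above the 4OHT control. Its log2 fold change was 0.27 against the ethanol control (SE 0.15, edgeR adjusted p = 0.194, block 0.0389) and 0.43 against the 4OHT control (adjusted p = 0.0381). That second call ended with DESeq2 (0.0681), without KO-labelled replicate 1 (0.152) or 2 (0.0923) and when 4OHT control replicate 2 (0.0579) or 3 (0.147) was left out. Mpc1 has a pseudogene with an identical stretch of 261 bases and shares exon bases with a gene on the other strand, so its count is uncertain. Mpc2 was not called in any comparison, with group means of 8.27, 8.15 and 7.43 CPM in the ethanol control, the KO-labelled libraries and the 4OHT control.

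Among the 5 subunits of the pyruvate dehydrogenase complex, Dlat alone was called in the KO-labelled comparisons with all libraries, TMM scaling and no block. Dlat is the E2 subunit, the acetyltransferase that carries lipoic acid and forms the core of the complex. It had 84.4, 94.5 and 90.7 CPM in the ethanol control, 74.5, 77.8 and 78.9 in the KO-labelled libraries and 94.8, 101 and 97.2 in the 4OHT control. Every KO-labelled library was below every control library. The log2 fold change was -0.22 against the ethanol control (SE 0.06, edgeR adjusted p = 0.00786) and -0.34 against the 4OHT control (SE 0.06, adjusted p = 0.00018), and Dlat stayed called in all 16 alternatives of both comparisons.

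The E1 subunit genes Pdha1 and Pdhb had log2 fold changes of 0.01 and -0.13 against the ethanol control, E3 (Dld, shared with the 2-oxoglutarate dehydrogenase complex) had -0.10 and the E3-binding protein Pdhx had -0.15. None of these was called (adjusted p = 0.945, 0.139, 0.196 and 0.124). With the block, Pdhb, Dld and Pdhx were called (adjusted p = 0.0149, 0.0428 and 0.0381), and Pdhb was also called without KO-labelled replicate 2 (0.0147). Pdha1 shares exon bases with Map3k15 on the other strand and Pdhb has a processed pseudogene, so both counts are uncertain. The difference in log2 CPM between Dlat and Pdha1 was -1.37, -1.23 and -1.23 in the ethanol control, -1.55, -1.56 and -1.40 in the KO-labelled libraries and -1.23, -1.04 and -1.01 in the 4OHT control, with the KO-labelled libraries lowest.

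The kinases Pdk2 and Pdk3 and the phosphatases Pdp1 and Pdp2 set the phosphorylation of the E1 subunit. Pdp2 had 22.3, 22.7 and 22.1 CPM in the ethanol control, 19.9, 20.1 and 19.3 in the KO-labelled libraries and 24.0, 25.5 and 27.3 in the 4OHT control. The 3 groups did not overlap. Its fall was called against the 4OHT control (log2 fold change -0.37, SE 0.07, edgeR adjusted p = 0.000943) and not against the ethanol control (-0.18, adjusted p = 0.0883, or 0.0384 with the block). Pdk2, Pdk3 and Pdp1 had log2 fold changes of -0.09, -0.10 and -0.17 against the ethanol control, with adjusted p of 0.725, 0.381 and 0.269. Pdk2 was among the members with the fewest counts, at 6.68 ± 1.06 CPM in the ethanol control (SD, n = 3), and its 95% interval ran from -0.42 to 0.25. Pyruvate carboxylase (Pcx, 0.07) and the mitochondrial malic enzyme Me2 (-0.07) were not called either (adjusted p = 0.595 and 0.484). Me2 was called lower against the 4OHT control only with the block (0.0101) or without KO-labelled replicate 2 (0.0173).

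Among the enzymes from citrate to 2-oxoglutarate, 3 of 5 fell against the ethanol control (4 of 5 with the block), beside 14.2% of all genes (22.3% with the block). Idh2, the NADP-dependent isocitrate dehydrogenase of the matrix, had 48.6, 42.8 and 43.2 CPM in the ethanol control, 38.6, 36.4 and 38.2 in the KO-labelled libraries and 48.5, 46.5 and 46.4 in the 4OHT control. No KO-labelled library reached a control library. The log2 fold change was -0.25 (SE 0.06, edgeR adjusted p = 0.00952) against the ethanol control and -0.32 (SE 0.06, adjusted p = 0.00107) against the 4OHT control. The first call ended with library totals (0.0651) and without ethanol control replicate 1 (0.0542).

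The NAD-dependent enzyme of the cycle is built from Idh3a, which carries the catalytic site, with Idh3b and Idh3g. Idh3a had 121, 132 and 132 CPM in the ethanol control, 103, 114 and 116 in the KO-labelled libraries and 118, 134 and 132 in the 4OHT control. The KO-labelled libraries were below both controls, by a log2 fold change of -0.21 (SE 0.06, edgeR adjusted p = 0.024) and -0.20 (SE 0.06, adjusted p = 0.0195). For Idh3a the call against the ethanol control ended with library totals (0.0887) and without ethanol control replicate 2 (0.0894) or 3 (0.0791) or KO-labelled replicate 1 (0.103). The call against the 4OHT control ended with library totals (0.111) and without KO-labelled replicate 1 (0.0995) or 4OHT control replicate 2 (0.0786) or 3 (0.0732).

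The other 2 subunits differed by control. Idh3b had 70.4, 70.0 and 71.2 CPM in the ethanol control, 60.8, 66.9 and 59.6 in the KO-labelled libraries and 62.5, 58.9 and 63.9 in the 4OHT control. Only the ethanol control stood apart, above the other groups. Idh3b fell against the ethanol control (log2 fold change -0.18, edgeR adjusted p = 0.0349) and was at 0.01 against the 4OHT control (adjusted p = 0.862). Its call against the ethanol control ended with library totals (0.20), without any 1 of the ethanol control libraries (0.0686, 0.0751 and 0.0874) and without KO-labelled replicate 1 (0.103) or 3 (0.104). Idh3g had a log2 fold change of -0.13 against the ethanol control (adjusted p = 0.0949, or 0.0128 with the block and 0.0407 without KO-labelled replicate 2). Idh3g fell by 0.20 on the log2 scale against the 4OHT control (adjusted p = 0.00924), a call that ended with library totals (0.121). Citrate synthase, Cs, had 329 ± 13.8, 335 ± 23.0 and 301 ± 10.9 CPM in the ethanol control, the KO-labelled libraries and the 4OHT control (SD, n = 3). It rose only against the 4OHT control (0.16, edgeR adjusted p = 0.0393), and that call was made in 7 of 16 alternatives. It ended, among others, without KO-labelled replicate 2 or 3, ethanol control replicate 2 or 3 or 4OHT control replicate 1 or 3.

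From 2-oxoglutarate to succinate, the largest fall among the 32 members was in Suclg2, the GTP-forming beta subunit of succinyl-CoA synthetase. It had 65.8, 74.1 and 70.9 CPM in the ethanol control, 51.4, 59.7 and 60.6 in the KO-labelled libraries and 71.7, 72.3 and 85.1 in the 4OHT control. All KO-labelled libraries were below all control libraries. The log2 fold change was -0.30 (SE 0.08, edgeR adjusted p = 0.0119) and -0.42 (SE 0.08, adjusted p = 0.000708) against the ethanol and the 4OHT control. The call against the ethanol control ended without ethanol control replicate 2 (0.0629) or KO-labelled replicate 1 (0.0589). A processed pseudogene is 98.9% identical to Suclg2 over 1302 bases and has its own row in the files, so reads may be split between them.

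Sucla2, the ATP-forming beta subunit, had 57.2, 60.8 and 62.9 CPM in the ethanol control, 52.5, 55.4 and 55.1 in the KO-labelled libraries and 58.7, 64.9 and 61.6 in the 4OHT control. It was below both controls in every KO-labelled library, and was called against the 4OHT control (log2 fold change -0.18, edgeR adjusted p = 0.023) but not against the ethanol control (-0.15, adjusted p = 0.0738, or 0.00952 with the block). The call against the 4OHT control ended with library totals (0.179) and without KO-labelled replicate 1 (0.0882) or 4OHT control replicate 2 (0.096) or 3 (0.0535). The log2 ratio of Suclg2 to Sucla2 was 0.22 ± 0.06 in the ethanol control, 0.07 ± 0.09 in the KO-labelled libraries and 0.30 ± 0.16 in the 4OHT-treated wild type (SD, n = 3). For the shared alpha subunit Suclg1 the log2 fold change against the ethanol control was -0.03 (adjusted p = 0.789).

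Ogdh, the E1 subunit of the 2-oxoglutarate dehydrogenase complex, had log2 fold changes of -0.04 and -0.05 against the ethanol and the 4OHT control (adjusted p = 0.618 and 0.546). Dlst, its lipoic acid-carrying E2 subunit, had 121, 131 and 140 CPM in the ethanol control, 114, 126 and 127 in the KO-labelled libraries and 88.5, 94.4 and 107 in the 4OHT control. The 4OHT control was below both other groups, which overlapped. Dlst rose in the KO-labelled libraries against the 4OHT control (0.34, SE 0.07, edgeR adjusted p = 0.00168) and was not called against the ethanol control (-0.09, adjusted p = 0.381). In the last steps of the cycle, fumarase (Fh1) and mitochondrial malate dehydrogenase (Mdh2) had log2 fold changes of -0.08 and -0.07 against the ethanol control and were not called (adjusted p = 0.385 and 0.398). Without KO-labelled replicate 2, Mdh2 was called lower against the ethanol control (-0.16, adjusted p = 0.0322) and the 4OHT control (0.0183).

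Among the cytosolic enzymes that work on cycle intermediates, Acly and Mdh1 moved in opposite directions. Acly, ATP citrate lyase, had 618, 633 and 637 CPM in the ethanol control, 509, 580 and 566 in the KO-labelled libraries and 651, 654 and 673 in the 4OHT control. The KO-labelled libraries were lowest, with a log2 fold change of -0.19 (SE 0.05, edgeR adjusted p = 0.012) and -0.26 (SE 0.05, adjusted p = 0.000977). The call against the ethanol control ended with library totals (0.0622) and without KO-labelled replicate 1 (0.0559).

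Mdh1, the cytosolic malate dehydrogenase of the malate-aspartate shuttle, had 146, 149 and 147 CPM in the ethanol control, 166, 171 and 162 in the KO-labelled libraries and 153, 154 and 148 in the 4OHT control. It was highest in every KO-labelled library. It rose by 0.18 on the log2 scale against the ethanol control (SE 0.05, edgeR adjusted p = 0.0121), a call that ended without ethanol control replicate 1 (0.0506) or KO-labelled replicate 2 (0.0558). It also rose against the 4OHT control, by 0.14 (adjusted p = 0.0332), which 7 of 16 alternatives called. That call ended without any 1 of KO-labelled replicates 1 and 2 (0.076 and 0.117) and 4OHT control replicates 1, 2 and 3 (0.0649, 0.0589 and 0.129). Mdh1 shares 52 exon bases with Wdpcp on the other strand. The log2 ratio of Mdh1 to Mdh2 was -0.66 ± 0.01, -0.41 ± 0.10 and -0.63 ± 0.01 in the ethanol control, the KO-labelled libraries and the 4OHT control (SD, n = 3). Idh1, the cytosolic isocitrate dehydrogenase, and Aco1, the cytosolic aconitase that also binds iron-responsive mRNA elements, had log2 fold changes of 0.00 and -0.17 against the ethanol control (adjusted p = 0.976 and 0.0801). Aco1 was called with the block (0.00282) and without ethanol control replicate 1 (0.0496) or KO-labelled replicate 3 (0.0357).

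The genes of glutamate and aspartate exchange were called only in comparisons with the 4OHT control unless the block was used or KO-labelled replicate 2 was left out. Got1 and Got2, the cytosolic and mitochondrial aspartate aminotransferases, and Glud1, glutamate dehydrogenase, had log2 fold changes of -0.12, -0.05 and -0.11 against the ethanol control, and none was called (adjusted p = 0.0836, 0.618 and 0.169). With the block, Got1 and Glud1 were called (0.0158 and 0.00976), and Glud1 also without KO-labelled replicate 2 (0.0202). Against the 4OHT control Got1 fell by 0.23 and Got2 by 0.33 on the log2 scale and Glud1 rose by 0.19 (adjusted p = 0.00201, 0.001 and 0.0189). The call of Glud1 ended without KO-labelled replicate 2 (0.128) or 4OHT control replicate 3 (0.0987). Got2 has 2 copies of at least 98.8% identity with rows of their own, and Glud1 has a processed pseudogene, so these counts are uncertain.

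Between the 2 control groups, 3 members were lower in the 4OHT control and 1 was higher, 9.38% and 3.12% of the members beside 8.75% and 9.66% of all genes. With the replicate block these were 7 (21.9%) and 4 (12.5%), beside 15.8% and 17.0% of all genes. Dlst was lower by 0.43 on the log2 scale, from 131 ± 9.15 to 96.6 ± 9.52 CPM (edgeR adjusted p = 0.000652). Glud1 had 400, 417 and 385 CPM in the ethanol control, 351, 404 and 355 in the KO-labelled libraries and 335, 331 and 306 in the 4OHT control (log2 fold change between the controls -0.31, adjusted p = 0.00198). Got2 had 179, 193 and 197 CPM in the ethanol control, 165, 195 and 191 in the KO-labelled libraries and 216, 235 and 240 in the 4OHT control (0.28, adjusted p = 0.00738). For Glud1 and Got2 the 4OHT control did not overlap either of the other groups, which overlapped each other. Idh3b was the other member called lower (-0.19, adjusted p = 0.0326), in 11 of 16 alternatives. The call ended without any 1 of the ethanol control libraries (0.0724, 0.077 and 0.0886) or without 4OHT control replicate 1 (0.0575) or 2 (0.125).

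**Figure D3:**
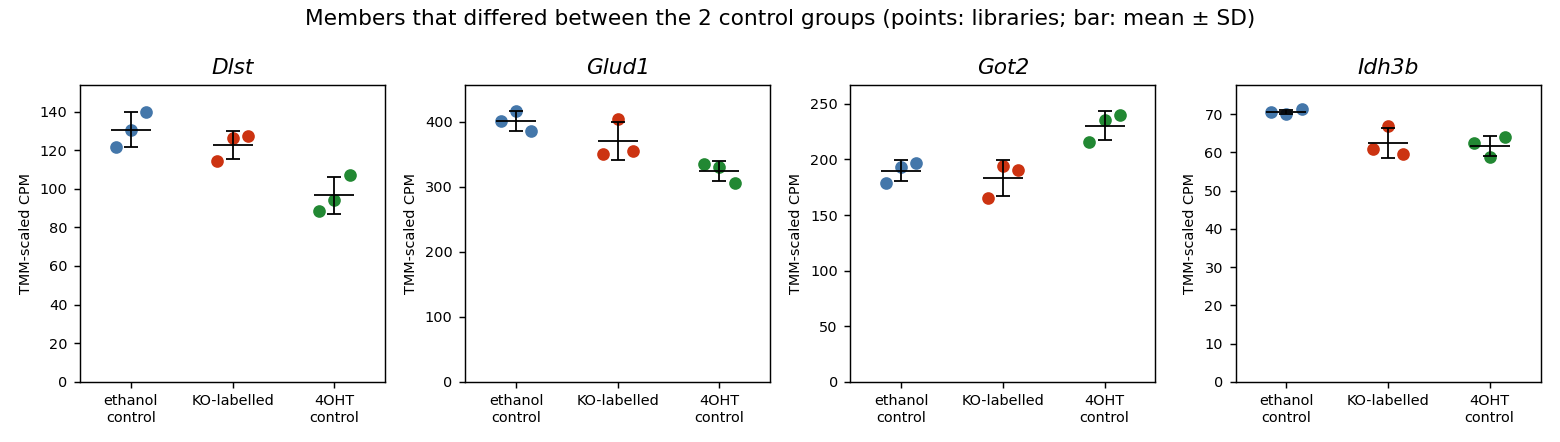
TMM-scaled CPM (y axis, from 0) in each library of the 3 groups (x axis) for the 4 members called between the control groups. Points are libraries, and bars are the mean and SD of 3. For Dlst, Glud1 and Got2 the 4OHT control lies apart from both floxed groups, and for Idh3b the ethanol control lies above the other groups.

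Log2 ratios of 9 pairs of partner genes were compared library by library with a two-sided exact permutation test, whose smallest possible p with 3 against 3 is 0.10. Against the ethanol control, 3 ratios reached it: Suclg2 to Sucla2 (difference -0.15), Dlat to Pdha1 (-0.23) and Mdh1 to Mdh2 (0.25). Their exact p adjusted over the 9 ratios was 0.30, and no ratio could have reached 0.05 in this design. The ratios of Idh3a to Idh3g (-0.08, exact p = 0.60) and of Dlst to Ogdh (-0.04, exact p = 0.40) overlapped between the KO-labelled libraries and the ethanol control. Dlst to Ogdh was lower in the 4OHT control than in both other groups, without overlap. The difference was 0.40 for the KO-labelled libraries against the 4OHT control and -0.44 for the 4OHT control against the ethanol control (exact p = 0.10 for each). Adjusted over the 9 ratios, these exact p were 0.15 and 0.30. Dlst to Ogdh was not alone at 0.10. Suclg2 to Sucla2, Idh3b to Idh3g, Dlat to Pdha1, Mdh1 to Mdh2 and Mpc1 to Mpc2 also reached it against the 4OHT control. Between the controls Idh3b to Idh3g and Got1 to Got2 did too.

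**Figure D4:**
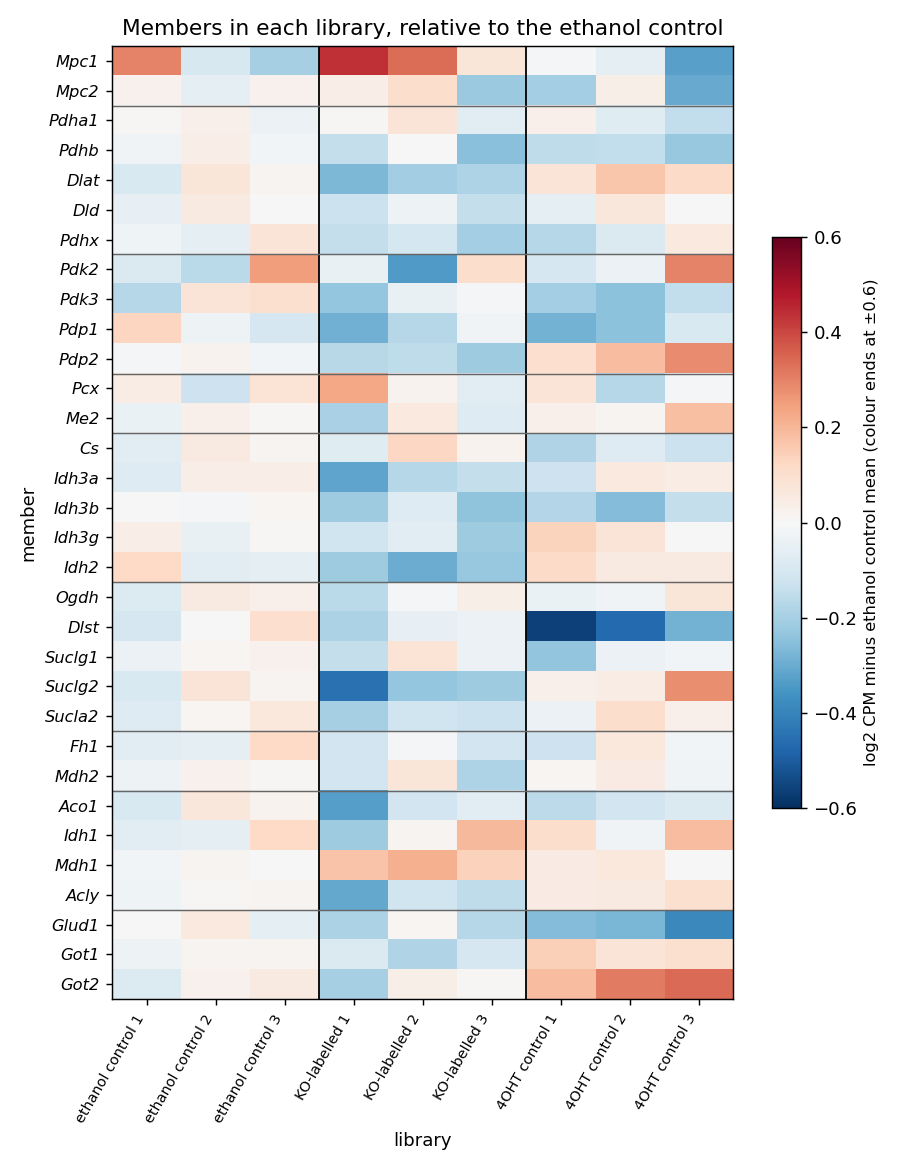
Log2 CPM of each member (y axis, grouped by role) in each of the 9 libraries (x axis), minus the mean of the ethanol control (colour scale from -0.6 to 0.6). Values ran from -0.56 for Dlst in the 4OHT control to 0.44 for Mpc1 in the KO-labelled libraries. Dlat, Idh2, Suclg2 and Acly are blue in all 3 KO-labelled columns, as are other members, among them Idh3a, Idh3b, Idh3g and Sucla2. Mdh1 and Mpc1 are red in all 3.

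Levels were compared between genes as CPM per kilobase of merged exons. In the ethanol control Acly was highest at 119 CPM per kb, followed by Glud1 (95.2), Mdh2 (65.3), Pdha1 (58.2), Mdh1 (57.4) and Cs (57.0). The lowest were Mpc2 (1.13), Pdk2 (2.11), Pdp1 (2.62), Mpc1 (3.14) and Pdp2 (3.93). Acly and Glud1 were first and second in all 3 groups. Mdh1 ranked 5 in the ethanol control and 3 in the KO-labelled libraries, at 64.8 CPM per kb, above Mdh2 at 62.1. Suclg2 and Sucla2 were level in the ethanol control (15.2 and 15.1 CPM per kb), and at 12.4 and 13.6 in the KO-labelled libraries. Exon lengths come from another annotation than the one counted, so these levels are approximate.

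A further list, also chosen with earlier results of these data known, held 35 genes of the same pathway, of which 34 could be tested. Against the ethanol control 13 fell and 1 rose, 38.2% and 2.94% of the list beside 14.2% and 13.0% of all genes, with a median log2 fold change of -0.13. The falls were uneven over the list. They were 6 of 8 genes of glutamine use and carriers (75%) and 4 of 12 of pyruvate and acetyl-CoA supply (33.3%). Of the 14 further cycle enzymes 3 fell (21.4%). The largest fall was in Pdk1, the pyruvate dehydrogenase kinase that hypoxia induces. It had 189, 181 and 190 CPM in the ethanol control, 98.5, 115 and 121 in the KO-labelled libraries and 180, 203 and 207 in the 4OHT control. The KO-labelled libraries lay far below both controls (log2 fold change -0.74, SE 0.07, edgeR adjusted p = 2.43e-06, and -0.82 against the 4OHT control). No member had a log2 fold change of that size in either direction.

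The other 5 genes with the smallest p were Gls2, Me1, Slc25a1, Slc25a12 and Sdhb. Gls2, a mitochondrial glutaminase, fell from 31.2 ± 1.86 to 22.6 ± 2.49 CPM (log2 fold change -0.47, adjusted p = 0.0015). Me1, the cytosolic malic enzyme, was the 1 rise, from 22.5 ± 0.72 to 29.5 ± 1.90 CPM (0.39, adjusted p = 0.00165). Slc25a1, which exports citrate to Acly, fell from 68.5 ± 5.38 to 52.8 ± 4.34 CPM (-0.37, adjusted p = 0.00189). Slc25a12, an aspartate-glutamate carrier, fell by 0.31, and Sdhb, the iron-sulfur subunit of succinate dehydrogenase, by 0.25 on the log2 scale (adjusted p = 0.00233 and 0.0115).

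Of these, Gls2, Me1 and Slc25a1 were also called against the 4OHT control (-0.39, 0.41 and -0.40), while Slc25a12 (0.10, adjusted p = 0.271) and Sdhb (-0.07, adjusted p = 0.42) were not. In that comparison 9 genes of the list fell and 4 rose, 26.5% and 11.8%, beside 19.8% and 19.1% of all genes. The falls were 4 of 8 genes of glutamine use and carriers (50%), 3 of 12 of pyruvate and acetyl-CoA supply (25%) and 2 of 14 cycle enzymes (14.3%).

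**Figure D5:**
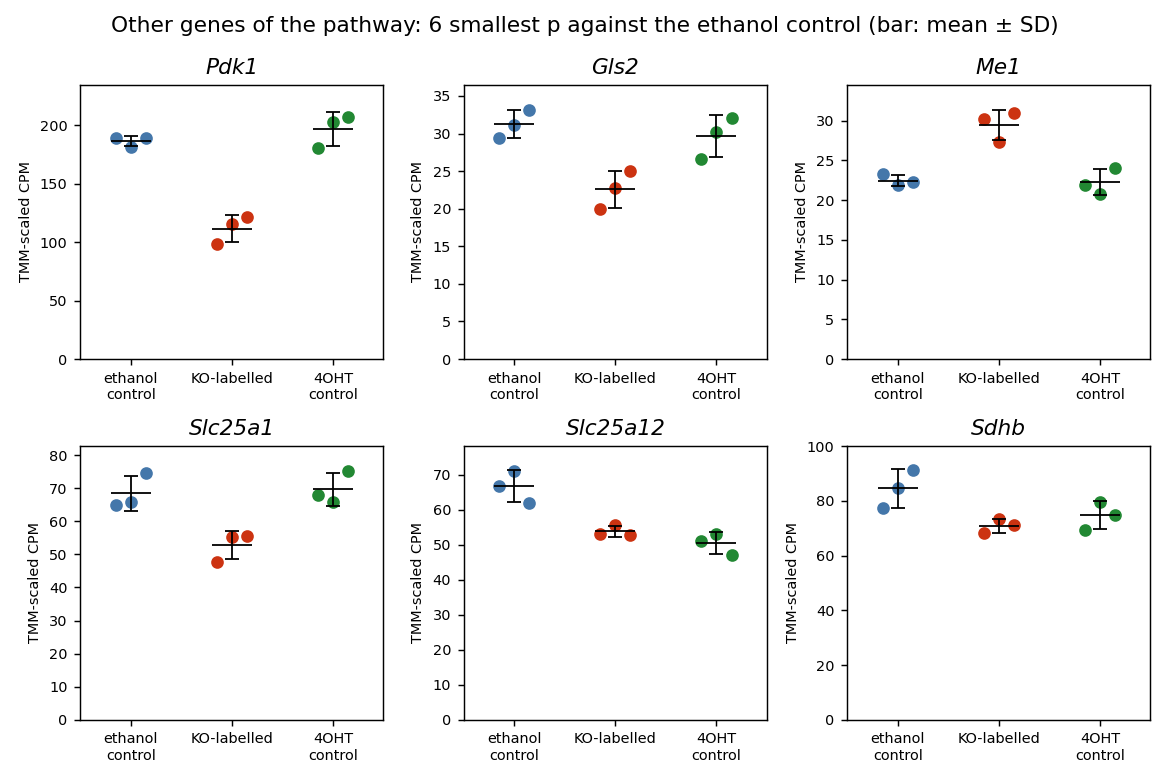
TMM-scaled CPM (y axis, from 0) in each library of the 3 groups (x axis) for the 6 genes of the further list with the smallest p against the ethanol control. Points are libraries, and bars are the mean and SD of 3. Pdk1, Gls2 and Slc25a1 are lowest and Me1 is highest in the KO-labelled libraries, while Slc25a12 is low in both groups that received 4OHT.

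Promoter sequence is shown for the 3 members with the largest falls called against both controls, so that the sequence upstream of these genes can be read. The windows are the 250 bases before the RefSeq start site, 5′ to 3′ along the gene, on GRCm38.p6, another build than the files' mm9. They are chr6:95718847-95719096 for Suclg2, chr7:80115351-80115600 for Idh2 and chr9:50659781-50660030 for Dlat, all on the minus strand.
Suclg2: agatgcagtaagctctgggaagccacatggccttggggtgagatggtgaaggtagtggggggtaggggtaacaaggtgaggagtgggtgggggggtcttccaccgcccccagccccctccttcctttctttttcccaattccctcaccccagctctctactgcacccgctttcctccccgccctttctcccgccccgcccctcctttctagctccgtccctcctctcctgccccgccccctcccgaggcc
Idh2: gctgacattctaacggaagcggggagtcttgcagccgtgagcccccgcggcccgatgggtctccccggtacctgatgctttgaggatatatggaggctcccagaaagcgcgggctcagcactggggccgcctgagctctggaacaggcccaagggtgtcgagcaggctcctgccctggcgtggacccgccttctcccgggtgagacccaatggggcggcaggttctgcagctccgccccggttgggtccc
Dlat: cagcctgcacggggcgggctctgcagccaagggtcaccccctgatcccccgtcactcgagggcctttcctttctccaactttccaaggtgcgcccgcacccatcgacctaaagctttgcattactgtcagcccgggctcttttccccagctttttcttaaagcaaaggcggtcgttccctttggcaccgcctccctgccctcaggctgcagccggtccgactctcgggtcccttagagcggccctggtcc
Their GC content was 64.4%, 67.2% and 62.8%, beside a median of 61.6% over the 38 member windows and 52.4% over all 32851 windows. None of the 3 windows, extended to 50 bases past the start, holds CCGGAAG or the Nrf1 palindrome on either strand. ETS factors such as Gabpa bind CCGGAAG, and shorter ETS sites were not searched. Gabpa and Nrf1 are known regulators of genes for mitochondrial proteins.

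RefSeq windows matched 29 of the 32 members, and Me2, Pdp1 and Idh3a had none. The sequence CCGGAAG was found in 5 of these 29: Idh3b, Dlst, Idh3g, Glud1 and Mpc1. It was in 13.2% of member windows and in 8.86% of all windows. The contexts are given 5′ to 3′ along the gene with this sequence in capitals, which read CTTCCGG where it lies on the other strand.
Idh3b: gaccgcgctcgCTTCCGGcgtcacttcccc
Dlst: ggccggtctcaCTTCCGGttgctgccgggc
Idh3g: tgctctaggcaCCGGAAGggggcgtaagaa
Glud1: acgggaccgacCTTCCGGgccgcggccgcg
Mpc1: ccgctgagaccCCGGAAGcctgcccaggac
The first capital lies at -5 in Idh3b, 1 in Dlst, -104 in Idh3g, -227 in Glud1 and -225 in Mpc1, with the start base counted as 0 and upstream bases negative. The first and last base shown are chr2:130284438-130284467 (minus strand), chr12:85110823-85110852, chrX:73786983-73787012 (minus strand), chr14:34310489-34310518 and chr17:8283551-8283580. These 5 genes had log2 fold changes against the ethanol control of -0.18, -0.09, -0.13, -0.11 and 0.27, and Idh3b alone was called. With the replicate block Idh3g, Glud1 and Mpc1 were called too, in a fit where 22.3% of all genes fell and 20.4% rose. Against the 4OHT control the values were 0.01, 0.34, -0.20, 0.19 and 0.43, and all but Idh3b were called, beside 19.8% of all genes falling and 19.1% rising. The Nrf1 palindrome was in no member window and in 0.971% of all windows. Its part GCGCATG, searched on both strands, was found in Glud1 and Ogdh, in 7.89% of member windows and 3.91% of all windows. The Ogdh windows that hold it share the same site, counted from different start sites. Matches of letters are a description of these windows only, and no binding data were used here.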

How the data were processed

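RNA was depleted of ribosomal RNA and made into directional libraries, per the labels' protocols. The authors deposited raw read counts per gene for each of the 9 libraries, and the submitters' processing notes name cutadapt, STAR, HTSeq, edgeR and mm9 without roles. The annotation and strand setting are not given in the sources used here. Library sizes were summed without the 5 HTSeq rows for unassigned reads.

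Counts were fitted with edgeR 4.0.16 (R 4.3.3; filterByExpr, TMM, robust quasi-likelihood, 1 mean per group over all 9 libraries, 6 residual degrees of freedom). P-values were adjusted by Benjamini-Hochberg over 16224 genes, with a threshold of 0.05. Members and gene lists were chosen with earlier results of these data known. Per-library values were given for members called against both controls in 1 direction, and for partners and other called members beside them. Of the further pathway list, the 6 genes with the smallest p against the ethanol control were named.

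Same-numbered libraries deviated together from their group means (correlation of deviations 0.11 to 0.31 in 9 of 9 pairs). The replicate numbers were therefore taken to pair the libraries, from the data. All 18 other pairs were negative, which follows in part from subtracting the group means and is no separate evidence. Alternatives were the replicate block, DESeq2 1.42.0, RLE size factors, library totals, no filter, a filter at 1 CPM in 3 libraries, only the groups compared, and each library left out. The fit was tested on simulated data for the ethanol comparison: of 100 genes changed by 0.5 on the log2 scale 58 were called, and of 100 changed by 1, 91. Merged exon lengths and near-identical copies (at least 95% over 200 bases, minimap2 2.31-r1302) came from GENCODE, and promoters from RefSeq on GRCm38.p6.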

Additional observations from a re-analysis of the deposited data

Results flagged for a closer look

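The share of reads that fell in no annotated feature was outside the gene-level comparisons and was higher in every KO-labelled library than in any control library. It was 33.8%, 32.7% and 33.4% in KO-labelled libraries 1, 2 and 3. The ethanol control had 26.4% to 28.7% and the 4OHT control 26.7% to 27.5%. Its part in the gene-level results was not tested.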

How the results depend on the processing

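With the replicate block, 15 members fell and 2 rose against the ethanol control (all genes 3625 and 3311), and between the controls 7 fell and 4 rose (all genes 2569 and 2754). Against the 4OHT control 12 members fell and 5 rose with the block (all genes 4198 and 4139). With library totals, 2 members and 1527 genes fell against the ethanol control. Against the 4OHT control 2 members rose with DESeq2, 3 with RLE size factors and 3 in a fit of the groups compared (all genes 2319, 2960 and 2810).

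With 1 library left out, 0 to 1 members rose and 2 to 10 fell against the ethanol control (all genes 1355 to 2132 and 1709 to 2427). Against the 4OHT control 1 to 5 rose and 8 to 12 fell (all genes 2341 to 3076 and 2670 to 3192). Between the controls 1 rose in every such fit and 2 to 4 fell (all genes 1014 to 1583 and 960 to 1488). The ends of a range for members and for all genes can come from different fits. No called member changed sign in any of the 16 alternatives. The causes of these changes were not tested. In the simulated ethanol comparison 58 of 100 changes of 0.5 on the log2 scale were called, and every member's change in the data was smaller. The median SE was 0.06 for the members, against 0.11 over all genes. Far fewer genes were changed in the simulation than were called in the data, which makes the adjusted threshold stricter. Its rate therefore does not give the chance that a change in a member was called.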

Other observations

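The lactate dehydrogenase genes, which sit beside pyruvate entry, showed spread within and between groups. Ldha, which turns pyruvate into lactate, had 578, 720 and 874 CPM in ethanol control libraries 1, 2 and 3, 402, 494 and 593 in the KO-labelled libraries and 668, 788 and 1003 in the 4OHT control. In each group library 1 was lowest and library 3 highest, and the KO-labelled and ethanol control ranges overlap. The log2 fold change of Ldha against the ethanol control was -0.54, with an edgeR adjusted p of 0.131 without the replicate block and 2.46e-15 with it. These genes were chosen after their values were seen.

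Ldhb had 244, 214 and 237 CPM in the ethanol control and 242, 195 and 230 in the KO-labelled libraries, which overlap, and 130, 99.7 and 117 in the 4OHT control, which lay below both.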
